A study of Mus musculus with 24 samples.

Results

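Transcripts of the MHC class I presentation pathway and of the immunoproteasome were followed in mouse spinal cord across 5 groups of mice, with 1 array for each of 24 animals. The set held 10 genes: the heavy chains H2-K1 and H2-D1, their light chain B2m, the peptide transporter genes Tap1 and Tap2, the loading factor Tapbp, the inducible proteasome subunits Psmb8, Psmb9 and Psmb10, and the regulator Nlrc5. A gene was represented by its probe set of highest mean over the 24 arrays, among probe sets annotated with a single symbol. By this rule 7 of the 10 genes had a value, out of 17097 genes in all, and B2m, Tap1 and Tap2 were not analysed here because the probe annotation used did not list them. Values are RMA log2 intensities, so a difference of 1 is a doubling.

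Th17 EAE in Act1 KO mice was represented by 4 spinal cords, and naive Act1 KO mice by 5. Wild-type mice gave 5 spinal cords after transfer of Th17 cells, 5 after transfer of Th1 cells and 5 from naive animals. EAE, experimental autoimmune encephalomyelitis, is a mouse model of multiple sclerosis. Recipients were irradiated with 500 rad and, 4 hours later, injected with T cells reactive to residues 35 to 55 of myelin oligodendrocyte glycoprotein (MOG), after culture under Th17 or Th1 conditions. Naive mice received no cells, so transfer, irradiation and disease cannot be told apart in any comparison with them. The Act1 KO label names the mouse whose cord was taken, and the study's text has Act1 KO mice receiving the Th17 transfer. The genotype of the mice that gave the T cells is not stated in that text. The design text of the series speaks of cells derived from wild-type or Act1-deficient mice. The genotype of the cells transferred to the Act1 KO group is therefore not settled here. Act1, encoded by Traf3ip2, is the adaptor through which the IL-17 receptor signals, and no Act1 KO mouse received Th1 cells. The sample labels place collection at the onset of symptoms and the study's text at the peak of disease, and the labels give no age.

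MHC class I molecules carry peptides from inside the cell to its surface, where CD8 T cells and natural killer cells read them. The proteasome cuts proteins into peptides, the TAP transporter moves these into the endoplasmic reticulum, and tapasin (Tapbp) helps to load them onto the heavy chain. Interferon-γ is known to exchange the constitutive catalytic subunits of the proteasome for the inducible ones, which makes the immunoproteasome, and NLRC5 is a transcriptional coactivator that works at class I promoters. Healthy neural tissue is known for low class I levels.

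The arrays were alike in scale, with medians from 3.46 to 3.57, and arrays of 1 group correlated at 0.986 to 0.997 over genes. Th1 recipients 4 and 5 stood at 55.0 and 55.9 on the first principal component, and the other 3 Th1 recipients at 67.8 to 68.5. The Traf3ip2 probe set averaged 5.56 ± 0.24 in naive Act1 KO animals, against 4.29 ± 0.20 in naive wild-type ones (SD, n = 5 each). It was 2.42-fold higher under the KO label (limma adjusted p = 4.66e-08), and the deleted part of the gene is not given in the sources used here, so the value checks nothing about the label. All p-values measure the spread between these mice.

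Upstream sequence from RefSeq (GRCm38.p6) was available for 8 of the 10 genes, but not for Tap2 and Nlrc5. Each window of 300 bases, 250 before and 50 after an annotated start, was searched on both strands for the letters AANNGAAA (the core bound by interferon regulatory factors), CCAAT (the Y box bound by NF-Y), TGACG (the CRE core of the X2 box) and the κB motif. Stretches upstream of the start are shown for 3 genes because they cover both heavy chains and the inducible subunit whose window held matches, with motif matches in capitals. They are read 5′ to 3′ along each gene and lie at chr17:34000334-34000468 on the minus strand for H2-K1, chr17:35262913-35263047 on the plus strand for H2-D1 and chr17:34187331-34187480 on the minus strand for Psmb9.
H2-K1: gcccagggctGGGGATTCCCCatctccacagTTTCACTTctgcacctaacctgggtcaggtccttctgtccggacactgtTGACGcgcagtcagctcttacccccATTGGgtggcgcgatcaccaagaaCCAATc
H2-D1: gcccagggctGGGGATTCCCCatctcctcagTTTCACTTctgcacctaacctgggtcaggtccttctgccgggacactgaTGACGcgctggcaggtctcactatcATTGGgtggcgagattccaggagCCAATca
Psmb9: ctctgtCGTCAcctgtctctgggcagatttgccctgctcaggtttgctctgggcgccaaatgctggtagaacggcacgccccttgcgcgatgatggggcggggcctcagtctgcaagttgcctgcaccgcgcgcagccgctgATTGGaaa

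The H2-K1 and H2-D1 stretches carried the same motifs in the same order, a κB motif, the IRF core, the CRE core and a pair of CCAAT boxes, and were identical at 119 of 136 alignment columns. Psmb9 held a CRE core and a CCAAT box. The Psmb9 window shared 275 bases with that of Tap1, which is read in the opposite direction. The B2m window held all 4 motifs. Tapbp held the CCAAT box only, and Psmb8 and Psmb10 held none of the 4 motifs in this window. Among 32851 windows of this length, 23.9% held the IRF core, 37.4% CCAAT, 20.8% the CRE core and 8.46% the κB motif. A match is a description of the letters and not of a bound site.

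In wild-type mice every measured gene of the set was higher after transfer of Th17 cells. All 7 passed the test, with differences from 2.48 to 6.61 on the log2 scale, against 18.0% of all genes called higher and 25.5% called lower (limma, Benjamini-Hochberg adjusted p under 0.05). The median difference of the 7 genes was 4.11 and that of all genes −0.05. With the arrays centred instead on 67 ribosomal protein genes, the median of all genes moved to −0.49 and the calls to 1657 genes higher and 13388 lower, against 3069 and 4367 as deposited, while all 7 genes were still called higher. The ribosomal protein genes were thus themselves higher in these recipients as deposited, and this centring lowers every other difference. The call of H2-D1 was lost when probe sets that can hybridize to related transcripts were left out. For each gene the Th17 and naive values did not overlap, and the exact two-sided permutation p was 0.00794, the smallest that 5 against 5 mice can give. The share of all genes without overlap is not given here. The exact Mann-Whitney test, adjusted over all 17097 genes, called 2851 higher and 3971 lower, so such separation was not particular to the set. In whole tissue, more cells of a type and more RNA per cell cannot be told apart.

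**Figure D1:**
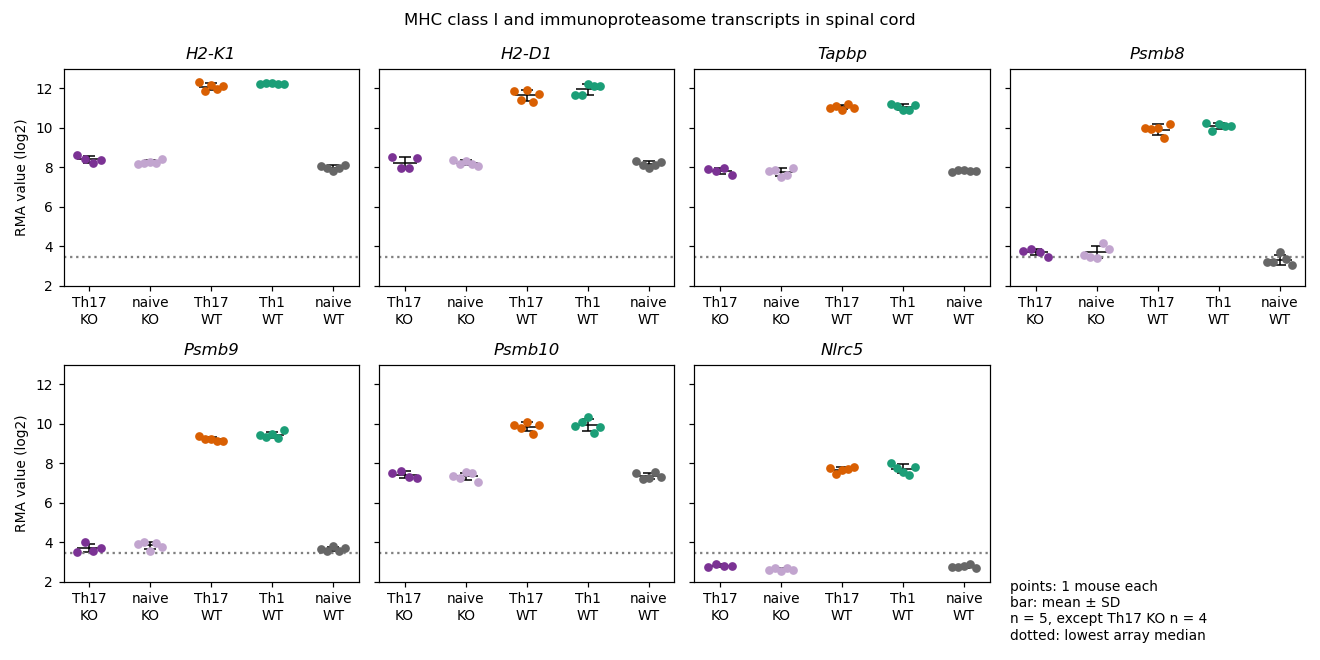
RMA log2 values of the 7 measured genes in each mouse, with group means and SD as bars (n = 5, Th17 Act1 KO n = 4). The Th17 and Th1 wild-type mice lie above all other mice in each panel, and the dotted line is the lowest array median, 3.46.

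The heavy chain genes encode the polymorphic surface molecules themselves. H2-K1 stood at 12.30, 11.85, 12.19, 11.96 and 12.12 in the 5 wild-type Th17 recipients, and at 8.07, 7.94, 7.79, 7.96 and 8.10 in the 5 naive wild-type mice. The groups were separated by 3.75, and the fitted difference was 4.11 with a standard error of 0.09, or 17.3-fold (adjusted p = 2.37e-23). H2-D1 stood at 11.88, 11.42, 11.93, 11.30 and 11.69 in Th17 recipients and at 8.32, 8.10, 7.97, 8.13 and 8.28 in naive mice. Its difference of 3.48 ± 0.14 (SE) was 11.2-fold (adjusted p = 1.5e-17), but it was 0.89 as the mean of all H2-D1 probe sets and 0.03 without the cross-hybridizing ones (limma adjusted p = 0.792). The probe sets representing the 2 genes were thus well above the array medians in naive cord as well, but both can also read related class I transcripts. The other H2-D1 probe sets stood at 2.56 to 2.86 in naive wild-type mice, below those medians.

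Tapbp encodes tapasin, which bridges the empty heavy chain and the transporter. Its values were 11.02, 11.12, 10.90, 11.20 and 11.00 in Th17 recipients and 7.74, 7.88, 7.84, 7.81 and 7.83 in naive mice. The 5 naive values spread over less than those of any other group of this gene, and the difference was 3.23 ± 0.09 (SE), or 9.36-fold (adjusted p = 5.8e-21).

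The inducible catalytic subunits differed most among themselves in size. Psmb8, the inducible counterpart of Psmb5, stood at 9.98, 9.92, 9.98, 9.47 and 10.19 in Th17 recipients and at 3.20, 3.19, 3.69, 3.35 and 3.04 in naive mice. Its difference of 6.61 ± 0.14 (SE) ranked 28 among 17097 genes (adjusted p = 2.11e-23), and the mean of its 2 probe sets differed by 3.57. The naive mean of 3.29 was below every array median, so no fold is given. Psmb9, the counterpart of Psmb6, stood at 9.36, 9.24, 9.24, 9.12 and 9.15 in Th17 recipients and at 3.68, 3.57, 3.80, 3.56 and 3.70 in naive mice. The 2 groups were narrow, with SDs of 0.09 in Th17 recipients and 0.10 in naive mice, and differed by 5.56 ± 0.10 (SE), 47.1-fold, rank 70 (adjusted p = 3.54e-25). The naive mean of 3.66 was close to the array medians of 3.46 to 3.57, so the fold rests on a value near the low end of the scale. The probe annotation used assigns this probe set to Psmb9, but whether it reads Psmb9 or the neighbouring Tap1 was not settled here. Psmb10, the counterpart of Psmb7, stood at 9.92, 9.76, 10.09, 9.49 and 9.94 in Th17 recipients and at 7.51, 7.18, 7.23, 7.56 and 7.30 in naive mice. It was clearly detected in naive cord and had the smallest difference of the 7 genes, 2.48 ± 0.13 (SE) or 5.59-fold, rank 499 (adjusted p = 7.76e-15).

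Nlrc5 values were 7.76, 7.48, 7.64, 7.72 and 7.80 in Th17 recipients and 2.74, 2.77, 2.79, 2.88 and 2.69 in naive mice. All 5 naive values were below the array medians, and the difference was 4.91 ± 0.09 (SE) on the log2 scale (adjusted p = 7.54e-25), with no fold given.

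Th1 recipients gave nearly the same picture against naive wild-type mice. All 7 genes were again higher, by 2.58 for Psmb10 to 6.79 for Psmb8, against 16.7% of all genes called higher and 24.1% called lower, and the median of the 7 was 4.28. Ribosomal centring gave 1434 genes higher and 13927 lower, against 2854 and 4115, and still called all 7 higher. H2-K1 values of the Th1 recipients, at 12.24, 12.27, 12.29, 12.24 and 12.23, had an SD of only 0.03. The difference of H2-K1 was 4.28 ± 0.09 (SE), or 19.5-fold, and that of H2-D1 3.80 ± 0.14, or 13.9-fold (0.98 as the mean of all its probe sets). Tapbp was 9.39-fold, Psmb9 54.9-fold, from a naive mean close to the array medians, and Psmb10 5.97-fold higher. Psmb8 and Nlrc5, whose naive means were below the array medians, differed by 6.79 and 4.94 on the log2 scale. The largest adjusted p of the 7 was that of Psmb10 (limma adjusted p = 3.65e-15). Both comparisons used the same naive mice. Th1 recipients 4 and 5, which stood apart from their group, had Psmb8 at 10.08 and 10.08, within the range of the other 3 (9.86 to 10.24). H2-D1 was also within that range, but the remaining genes were not in both mice. Psmb10, at 9.54 and 9.85, was below the other 3 (9.89 to 10.34). Psmb9, at 9.27 and 9.67, was outside their range of 9.35 to 9.46. Nlrc5 (7.43) and Tapbp (10.89) of recipient 4 and H2-K1 (12.23) of recipient 5 were below the other 3.

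Set directly against each other, the kinds of transferred T cell differed little for this pathway. None of the 7 genes passed the test between Th17 and Th1 recipients, where 1.91% of all genes were called higher and 1.09% lower in Th17 recipients. With ribosomal centring 378 genes were called higher and 105 lower, against 327 and 186, and again none of the 7. All 7 differences were below 0, from −0.32 for H2-D1 to −0.01 for Tapbp. H2-D1 stood at 11.88, 11.42, 11.93, 11.30 and 11.69 in Th17 recipients and at 11.65, 11.67, 12.21, 12.14 and 12.12 in Th1 recipients, and the groups overlapped. Its 95% confidence interval ran from −0.61 to −0.03, with an unadjusted p of 0.0316 and an adjusted p of 0.33 (limma). Psmb9 likewise differed by −0.22, with an interval from −0.42 to −0.02 and an adjusted p of 0.33 (limma). The intervals of the other 5 genes included 0, and the widest of them, that of Psmb8, reached from −0.47 to 0.11. In the order of group means, wild-type Th1 and Th17 recipients were thus the top neighbours for each of the 7 genes, not separated by the test, with the other 3 groups below them.

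In mice labelled Act1 KO, no difference in the set was detected after transfer of Th17 cells. None of the 7 genes passed the test in Th17 recipients against naive mice of this genotype, and none had an unadjusted p under 0.05 by limma. Nor was any of the 17097 genes called, so the background was 0% in each direction, with 1070 genes at an unadjusted p under 0.05 by limma. H2-K1 stood at 8.62, 8.42, 8.20 and 8.36 in Act1 KO Th17 recipients and at 8.15, 8.22, 8.28, 8.21 and 8.43 in naive Act1 KO mice. Psmb8 stood at 3.77, 3.86, 3.73 and 3.48 in these recipients and at 3.58, 3.45, 3.43, 4.16 and 3.84 in the naive KO mice. Both pairs of groups overlapped, and the differences were 0.14 for H2-K1, with a 95% interval from −0.05 to 0.34, and 0.02 for Psmb8, with an interval from −0.29 to 0.33.

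Psmb9 stood at 3.53, 4.01, 3.57 and 3.69 in Act1 KO Th17 recipients and at 3.90, 4.02, 3.58, 3.97 and 3.77 in naive KO mice. Nlrc5 was the only gene whose groups did not overlap, at 2.76, 2.92, 2.79 and 2.79 in the recipients and 2.60, 2.69, 2.52, 2.72 and 2.58 in naive KO mice. Its difference of 0.19 had an exact permutation p of 0.0159 and a limma adjusted p of 0.798, and all 9 values were below the array medians. The remaining differences were −0.01 for H2-D1, 0.05 for Tapbp, −0.15 for Psmb9 and 0.08 for Psmb10. The upper ends of the 95% intervals of the 7 genes lay between 0.07 and 0.39, below the smallest wild-type difference of 2.48.

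**Figure D2:**
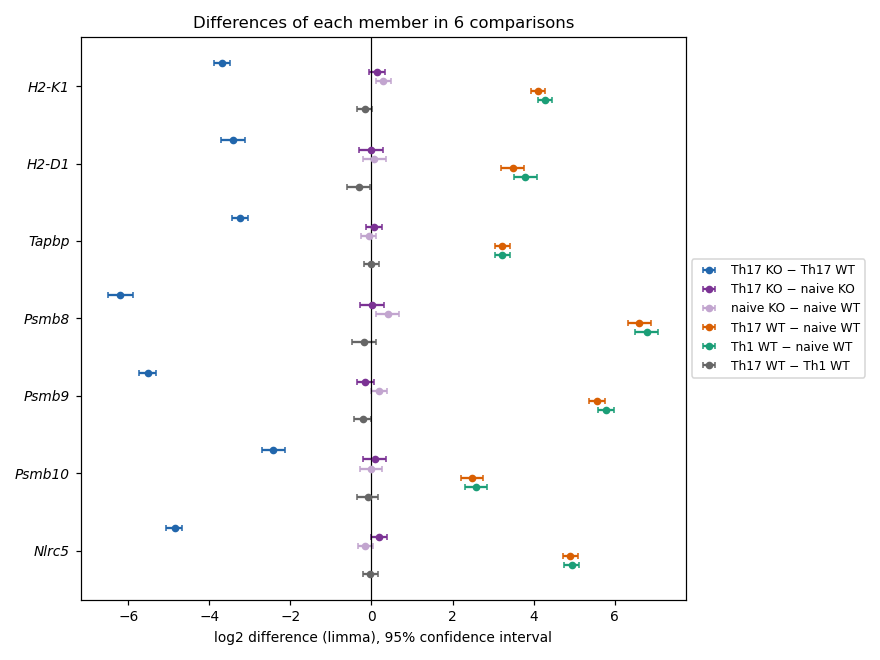
Fitted log2 differences of the 7 genes in 6 comparisons, with 95% confidence intervals. Th17 Act1 KO minus naive Act1 KO lies between −0.15 and 0.19, whereas Th17 wild type minus naive wild type lies between 2.48 and 6.61.

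Between Th17 recipients of the 2 genotypes, all 7 genes were lower in Act1 KO mice, where 17.6% of all genes were called lower and 24.6% higher. The median difference of the 7 genes was −3.68, against 0.06 for all genes. Ribosomal centring gave 12764 genes higher and 1746 lower, against 4212 and 3002, with all 7 still lower. H2-K1 averaged 8.40 ± 0.17 in Act1 KO Th17 recipients (SD, n = 4) and 12.08 ± 0.18 in wild-type Th17 recipients (SD, n = 5), a difference of −3.68 ± 0.09 (SE). H2-D1 averaged 8.22 ± 0.31 and differed by −3.42 ± 0.15. Tapbp stood at 7.89, 7.82, 7.94 and 7.60 in the KO recipients and differed by −3.24 ± 0.09. Among the immunoproteasome subunits Psmb8 differed by −6.20 ± 0.15, Psmb9 by −5.52 ± 0.10 and Psmb10, at 7.50, 7.62, 7.29 and 7.27 in the KO recipients, by −2.42 ± 0.14. Nlrc5 differed by −4.86 ± 0.09, and the largest adjusted p of the 7 genes was 5.53e-14 (limma).

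None of the 7 genes passed the test between naive mice of the 2 genotypes, where 0.164% of all genes were called higher and 0.421% lower in Act1 KO mice. The nearest was H2-K1, which was higher in all 5 naive Act1 KO mice (8.15 to 8.43) than in all 5 naive wild-type mice (7.79 to 8.10). Its difference was 0.29, with an unadjusted p of 0.00316 and an adjusted p of 0.235 (limma). Psmb8 differed by 0.40 (unadjusted p = 0.00858 and adjusted p = 0.385, limma), with overlapping values.

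The response to Th17 transfer was then compared between genotypes, as the difference between the Act1 KO and the wild-type contrasts. It was below 0 for all 7 genes, where 13.8% of all genes were called lower and 18.2% higher. It ran from −2.40 ± 0.19 for Psmb10 to −6.59 ± 0.20 for Psmb8 (SE), with adjusted p of at most 8.81e-11 (limma). Ribosomal centring gave 10093 genes higher and 1465 lower, against 3114 and 2365, and all 7 remained below 0.

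The proteasome was examined beyond the inducible subunits. Psmb5, Psmb6 and Psmb7, the constitutive catalytic subunits that the inducible ones replace, differed by 0.10, 0.22 and −0.18 between wild-type Th17 recipients and naive mice, and of the 3 only Psmb6 passed the test (limma adjusted p = 0.0132), whereas with ribosomal centring all 3 were called lower, by −0.33, −0.22 and −0.62. After Th1 transfer the 1 called gene was Psmb7, lower by −0.24 (limma adjusted p = 0.0298), with 3 called lower under ribosomal centring and none under quantile normalization. Of 11 other subunits of the proteasome core, 7 were higher and none lower in Th17 recipients, with a median of 0.23 and a highest value of 0.52, for Psma1, but with ribosomal centring none was higher and 7 were lower, with a median of −0.21. Ribosomal centring thus reversed the direction of the 11 other core subunits as a list. It also moved the median of all genes from −0.05 to −0.49. Which scaling is nearer the true levels was not tested. With arrays centred on their medians, 4 of the 11 other core subunits were higher and none lower, with a median of 0.18. The activator genes moved further: Psme1 and Psme2, which encode the PA28 ring that interferon-γ is known to induce, were higher by 2.70 (6.5-fold) and 2.92 (7.59-fold), and by 2.26 and 2.49 with ribosomal centring. Psme3, a nuclear activator of the same family, was lower by −0.30, and Pomp, an assembly chaperone, higher by 0.30, which turned to −0.14 with ribosomal centring (limma adjusted p = 0.102). In Act1 KO mice no gene of these lists was called between Th17 recipients and naive mice, nor was any of the 17097 genes. Psme1 differed by 0.31 ± 0.13 (SE) in this comparison.

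**Figure D3:**
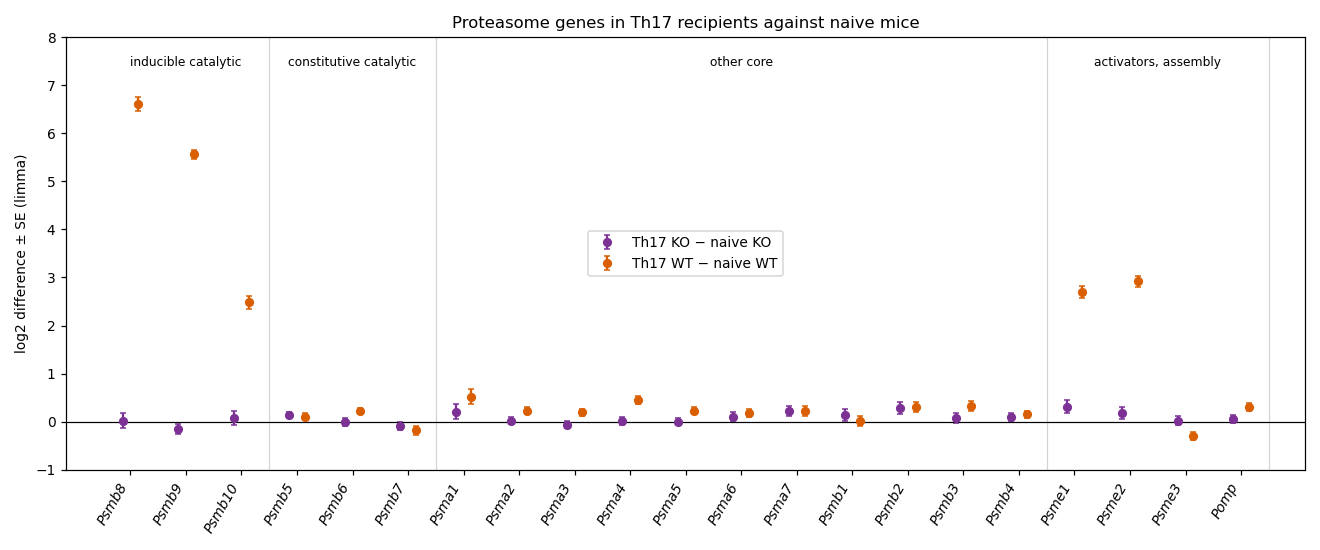
Fitted log2 differences with standard errors for 21 proteasome genes, Th17 recipients minus naive mice, in Act1 KO and in wild-type mice. In wild-type mice Psmb8, Psmb9, Psmb10, Psme1 and Psme2 lie at 2.48 or more, and no other gene shown is above 0.52. The direction of the 11 other core subunits is reversed with ribosomal centring (median 0.23 as plotted, 0.18 centred on array medians, −0.21 with ribosomal centring).

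Peptide trimming and loading factors also split. Tapbpl, a tapasin relative that edits peptides, was higher by 2.85 and Erap1, the aminopeptidase of the endoplasmic reticulum that trims peptides, by 2.84 in wild-type Th17 recipients. The naive wild-type mean of Erap1, 3.31, was below the array medians, and that of Tapbpl, 3.48, was within their range. Calr, the chaperone calreticulin, was higher by 0.70, Canx (calnexin) differed by 0.03 (−0.41 and called lower with ribosomal centring), and Pdia3, the disulfide isomerase of the loading complex, was lower by −0.58, so that 3 of the 5 measured genes were called higher and 1 lower. In naive mice Calr was higher in Act1 KO than in wild-type animals (0.35, limma adjusted p = 0.0349).

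Of 14 measured class I heavy chain genes outside the set, 8 were higher and none lower in wild-type Th17 recipients, with a median of 1.80, and with ribosomal centring 8 were higher and 5 lower. H2-T23, which encodes the non-classical molecule Qa-1, had the largest difference, 5.30 (39.4-fold), followed by H2-Q5 (3.73), H2-T10 (3.24), H2-Q4 (3.11) and H2-M3 (3.11), the last of which presents formylated peptides. The naive wild-type means of H2-Q5 (2.91) and H2-Q4 (2.58) were below the array medians. The 6 not called ranged from −0.14 to 0.12 and included H2-T3, H2-Q1 and H2-Q2, whose means were below the array medians in Th17 recipients and in naive mice. Fcgrt, which encodes the neonatal Fc receptor and presents no peptide, was the 1 gene of the list called between Th17 and Th1 recipients (−0.42, limma adjusted p = 0.0209). Probe sets of this gene family may cross-hybridize, so the level of 1 heavy chain gene is uncertain.

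Genes known to act on class I promoters were then followed. Of 13 measured, 7 were higher and 2 lower in wild-type Th17 recipients, and with ribosomal centring 6 were higher and 5 lower. Irf1, which binds the interferon response element, differed by 4.98 (31.6-fold) and Stat2 by 2.59 (6.02-fold). Atf1 differed by 1.12, Nfya by 0.97, Irf2 by 0.96 and Rela by 0.92. The 2 lower genes were Rfxap (−0.41) and Nfyb (−0.35), both subunits of complexes at the X and Y boxes, and Rfx5 (−0.17) and Rfxank (0.07) were not called. Ciita, the class II counterpart of Nlrc5, differed by 0.43 in Th17 recipients (0.00 with ribosomal centring) and by 0.84 in Th1 recipients. It was lower in Th17 than in Th1 recipients (−0.41, limma adjusted p = 0.00493), with overlapping values. Its means of 2.70 in naive wild-type mice and 3.13 in Th17 recipients were below the array medians, and that of Th1 recipients was 3.54. Nlrc5 differed by −0.03 between Th17 and Th1 recipients.

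Of 6 genes of the interferon-γ axis, 5 were higher in Th17 recipients: Ifng by 1.32, Ifngr1 by 2.20, Ifngr2 by 0.78, Jak2 by 1.13 and the feedback inhibitor Socs1 by 1.59. Jak1 differed by 0.17 and was not called, but was lower by −0.27 with ribosomal centring (limma adjusted p = 0.0181). Ifng averaged 3.92 in Th17 recipients, 4.11 in Th1 recipients and 2.60 in naive wild-type mice, and its difference between the kinds of transfer was −0.19 (limma adjusted p = 0.666). Its values were thus near the low end of the scale. The naive wild-type means of Ifng and of Socs1 (2.77) were below the array medians.

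Receptors that read class I molecules were higher in 7 of 8 cases in wild-type Th17 recipients (with ribosomal centring 7 higher and 1 lower). The naive wild-type means of all 8 were below the array medians. Pirb, an inhibitory receptor of myeloid cells, differed by 4.57, Klrd1 (CD94) by 2.35, Klra2 by 1.56 and Klrk1 (NKG2D) by 1.49. Cd8a and Cd8b1, the CD8 coreceptor chains, differed by 1.33 and 1.41. Between Th17 and Th1 recipients Pirb was higher (0.45, limma adjusted p = 0.0428) and Klra2, a Ly49 receptor, lower (−0.78, limma adjusted p = 0.00464). In Act1 KO mice no gene of the promoter factor, interferon-γ, heavy chain, loading or receptor lists was called between Th17 recipients and naive mice. Nor was any of the 17097 genes, so this is no trait of the lists. Calr (−0.36, limma adjusted p = 0.216) and Socs1 (−0.26, limma adjusted p = 0.904) had values that did not overlap in this comparison.

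Several probe sets measured some of the genes, and they did not all tell the same story. All 4 single-symbol probe sets of H2-K1 are of the x type, whose probes can hybridize to related transcripts. In wild-type Th17 recipients against naive mice they differed by 4.11, 4.14, 4.70 and 0.97. The dimmest, at 0.97, was also lower in Th17 than in Th1 recipients, by −0.70 (limma adjusted p = 0.0448 over all probe sets). The others differed by −0.17, −0.21 and −0.18 between these recipients and were not called. H2-D1 had 5 probe sets, and besides the bright x-type one at 3.48 the others differed by 0.57, 0.21, 0.13 and 0.03 with means below 3.46 in all groups. The last of these is the only H2-D1 probe set not of the x type, so the H2-D1 result rests on a single probe set that can also read other class I transcripts. A further 5 probe sets carried the symbols of H2-K1, H2-D1 and another locus together, and 4 of them differed by 3.40 to 3.89 and the other by 0.18. Neither heavy chain can therefore be told from its relatives by these values.

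Tapbp, Psmb9 and Psmb8 also had several probe sets. The 2 Tapbp probe sets differed by 3.23 and 3.43. Of the 3 Psmb9 probe sets, 2 differed by 5.56 and the other, near the low end of the scale at 3.42 in Th17 recipients, by 0.54. The brighter of the 2 gave the values above, and the doubt over whether it reads Tap1 applies to it, while the other averaged 9.04 in Th17 recipients and 3.47 in naive wild-type mice. Psmb8 had a second probe set at 3.40 in Th17 recipients, which differed by 0.53. Psmb10 and Nlrc5 had 1 probe set each.

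**Figure D4:**
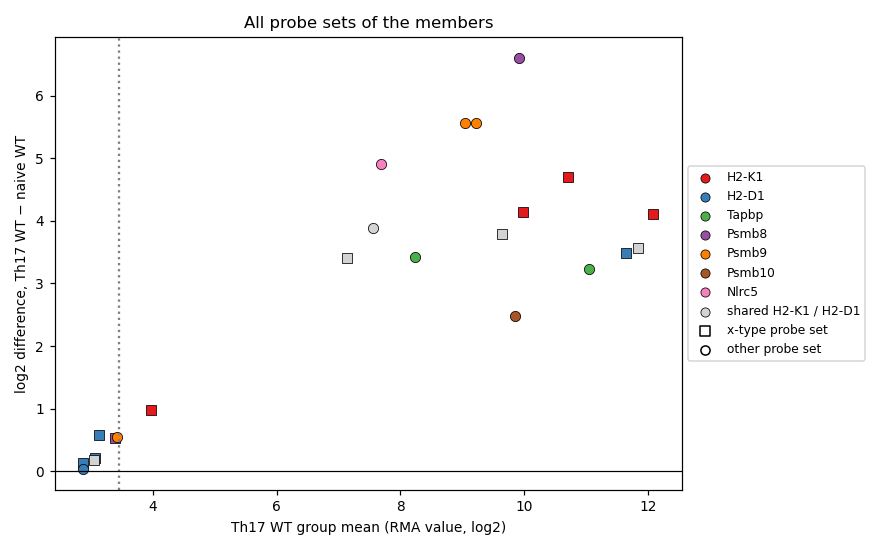
Log2 difference between wild-type Th17 recipients and naive wild-type mice against the mean in wild-type Th17 recipients, for each probe set of the 7 genes, with squares for x-type probe sets. Probe sets below 4 on the horizontal axis differ by less than 1, and all brighter ones by 2.48 or more.

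The 5 genes outside the set whose 5 group means were nearest to the median profile of the members, after centring, were Cd84 (root mean square distance 0.06), Adgre1 (0.07), Apobec1 (0.09), Hacd4 (0.10) and Cyp4f18 (0.11), over 24 mice in 5 groups. Cd84, a leukocyte receptor of the SLAM family, averaged 3.58 in Act1 KO Th17 recipients, 3.59 in naive Act1 KO mice, 7.35 in wild-type Th17 recipients, 7.54 in wild-type Th1 recipients and 3.35 in naive wild-type mice. Adgre1, a surface receptor used as a macrophage marker, averaged 4.04 in Act1 KO Th17 recipients, 4.01 in naive Act1 KO mice, 7.79 in wild-type Th17 recipients, 7.87 in wild-type Th1 recipients and 3.78 in naive wild-type mice. Among the members themselves the distance ran from 0.01 for H2-K1 to 1.21 for Psmb8.

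Markers of T cells and of monocytes and macrophages were higher in the same recipients as the set. In wild-type Th17 recipients against naive mice, 6 of 6 T cell markers were higher (median 3.18), as were 8 of 8 monocyte and macrophage markers (median 4.68) and 4 of 5 neutrophil markers (with ribosomal centring 3 higher and 1 lower), whereas 5 of 5 oligodendrocyte and 5 of 5 neuron markers were lower. Microglia also express several of the monocyte and macrophage markers, among them Itgam, Aif1 and Cd68. Of 5 astrocyte markers 4 were higher (median 0.59), but with ribosomal centring 1 was higher and 1 lower. Of 5 endothelial markers 2 were higher, Pecam1 by 1.28 and Cldn5 by 1.00, and 1 lower (3 lower with ribosomal centring). Of 3 markers of oligodendrocyte precursors 1 was higher and 1 lower (0 higher and 2 lower with ribosomal centring). The array means of the T cell list were 5.97 to 6.20 in wild-type Th17 recipients and 2.92 to 3.05 in naive wild-type mice, and those of the monocyte and macrophage list 8.22 to 8.59 in these recipients and 3.78 to 3.87 in naive mice. In Act1 KO Th17 recipients the T cell list stood at 3.04 to 3.20 and the monocyte and macrophage list at 3.79 to 3.92. In naive KO mice these lists stood at 2.92 to 3.15 and 3.85 to 3.92. No marker was called between these groups, nor was any of the 17097 genes. Cd4 differed by 0.48 ± 0.15 (SE) without overlap (limma adjusted p = 0.42), while the median of the T cell list was 0.01. Of 5 microglia markers, 2 were higher and 3 lower in wild-type Th17 recipients, and 0 of 3 B cell markers were called, against 2 called lower with ribosomal centring. The part of these cells in the class I and immunoproteasome values was not tested.

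Between the kinds of transfer, where none of the 7 genes was called, 4 of 5 neutrophil markers were higher after Th17 than after Th1 transfer, as were 2 of 6 T cell markers (Cd2 by 0.68 and Cd4 by 0.66). Of 8 monocyte and macrophage markers 3 were higher, the most Ccr2 by 0.73, with 1 to 3 called under the other scalings, and 1 of 5 astrocyte and 1 of 3 precursor markers were also higher. The neutrophil list had means of 5.69 to 6.47 in Th17 recipients, 3.64 to 5.24 in Th1 recipients and 2.83 to 3.56 in naive wild-type mice.

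**Figure D5:**
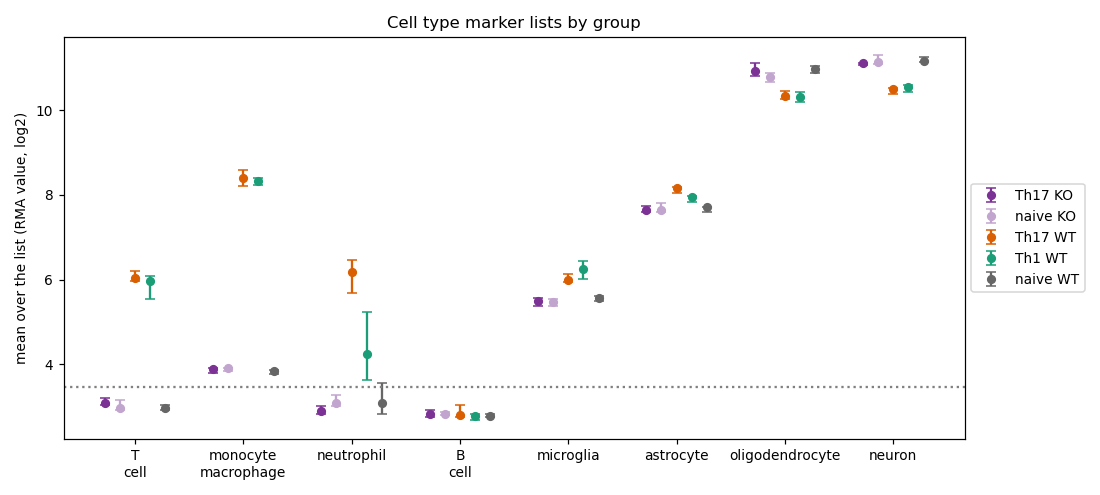
Mean RMA log2 value of 8 cell type marker lists by group, with points at the median array and bars from the lowest to the highest array. The T cell list stands at 3.04 to 3.20 in Act1 KO Th17 recipients and at 5.97 to 6.20 in wild-type Th17 recipients.

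The letter in the code of each sample title may mark a position in the processing, although the labels do not explain it. Within each of the 4 letters that held both wild-type Th17 recipients and naive mice, every gene of the set was higher in the recipients, by 6.27 to 6.88 for Psmb8 and by 2.31 to 2.58 for Psmb10. The same held within each of the 3 letters shared by Th1 recipients and naive mice. Between Th17 recipients of the 2 genotypes 1 letter was shared, within which the 7 differences ran from −2.50 to −6.44. No letter was shared by Act1 KO Th17 recipients and naive KO mice.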

How the data were processed

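Total RNA from 24 spinal cords was hybridized to Affymetrix mouse 3′ IVT arrays, 1 per mouse. The authors deposited a table of log2 values for 45118 probe sets, made with RMA, which corrects background, normalizes arrays to a common distribution and summarises probes. Its version is not given in the sources used here, and a shift of all genes at once would not be visible in such values. Platform annotation gave 1 symbol for 28898 probe sets and several for 551, and 15669 were not listed in it. For each of 17097 genes the probe set of highest mean was kept, with no filter on low values. A group-means model over all 24 arrays was fitted in limma (version 3.58.1, R 4.3.3, empirical Bayes), with 7 contrasts and Benjamini-Hochberg adjustment over all genes, and a call needed an adjusted p under 0.05. Single genes were also tested by exact two-sided permutation of mice. The number of arrays limits the precision. The genes named are all members, up to 4 genes of smallest adjusted p per pathway list with those called in the other direction, and the 5 nearest genes. Other genes of a list were named to complete a subunit set after their values were seen. The members and lists were chosen with earlier results of these data known. The fit was tested on simulated data. Alternatives covered probe set choice, scale, variance model, blocks, omitted arrays and tests.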

Additional observations from a re-analysis of the deposited data

Results flagged for a closer look

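The 7 measured genes were marked because their response to Th17 transfer differed between genotypes by a test of the difference itself. The Act1 KO response minus the wild-type response was −3.97 for H2-K1, −3.50 for H2-D1, −3.17 for Tapbp, −6.59 for Psmb8, −5.71 for Psmb9, −2.40 for Psmb10 and −4.71 for Nlrc5 on the log2 scale. The corresponding limma adjusted p ran from 2.72e-21 for Psmb9 to 8.81e-11 for Psmb10. No mouse lay far from its group by Dixon's test in any of the 35 combinations of gene and group.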

How the results depend on the processing

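Across 40 alternatives, 24 of which left out 1 array each, the number of members called was as reported in all but 1, and ran from 7 to 7 over the omitted arrays in the 4 comparisons that called 7. The exception left out x-type and shared probe sets, where 5 of the 6 genes still measured were called in each of those 4 comparisons. The t-test and the exact Mann-Whitney test give no value for the difference of responses. Deviations of mice with the same replicate number in the titles correlated from −0.29 to 0.44 in 46 pairs and exceeded 0.1 in 16. Differently numbered mice were not compared, so whether these numbers pair the mice was not settled. With the replicate block, 7 members were still called in Th17 against naive wild-type mice. H2-D1 was the gene that lost calls without x-type and shared probe sets. It then differed by 0.03 between Th17 and naive wild-type mice (limma adjusted p = 0.792), by −0.06 between Th1 and naive mice (adjusted p = 0.56), by −0.10 between genotypes after Th17 transfer and by −0.02 in the difference of responses. Its remaining probe set is at the low end of the scale, and H2-K1 had no probe set left. Averaging all probe sets of a gene lowered the Th17 difference of H2-D1 to 0.89, of Psmb8 to 3.57, of Psmb9 to 3.89 and of H2-K1 to 3.48, and the Th1 difference of H2-D1 to 0.98. With centring on ribosomal protein genes Psmb10 stayed higher by 2.04. Member p-values by the exact Mann-Whitney test, adjusted over all genes, were 0.0227 for Th17 against naive wild-type mice.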
